A study of Drosophila melanogaster with 12 samples.

Results

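The very long chain fatty acid elongases of Drosophila larvae were followed here as 8 genes of the ELO family: CG16904, sit (CG5278), CG8534, bond (CG6921), Baldspot (CG3971), CG5326, CG31522 and CG9458. They were taken by name, as every probe set that the platform annotation assigned to 1 gene whose symbol or CG number was on that list. Of the 8 genes, 7 had a probe set, with 11 probe sets among them, of 18769 probe sets in the series matrix that are not controls. The dChip table, which held 9669 probe sets, contained 9 of the 11, at least 1 for each of the 7 genes, and the other 2 were read from the series matrix. No probe set carried the name Baldspot, so that gene was not analysed here.

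ELO elongases are enzymes of the endoplasmic reticulum membrane that condense malonyl-CoA with a long fatty acyl-CoA, the first step of each round of chain lengthening. A ketoacyl reductase, a dehydratase and an enoyl reductase complete the round, and the product can enter another. The resulting very long chain fatty acids go into ceramides and other membrane lipids and, in insect oenocytes, into the cuticular hydrocarbons that waterproof the body surface. HNF4 is a nuclear receptor, and the arrays compared larvae labelled mutant for it with controls, starved or fed.

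The study used 12 one-colour arrays of whole larvae of Drosophila melanogaster, 3 per group. Larvae labelled mutant carried the deletion alleles HNF4(del33) and HNF4(del17) over each other, and were starved for 24 h or fed. Control larvae carried precise excisions of the P-elements EP2449 and KG08976 over each other, and were likewise starved for 24 h or fed. Starvation was in a dish with paper soaked in PBS, from the late second instar, and RNA came from animals that looked healthy and had reached the third. The labels do not say whether replicates were separate collections, so p-values measure the spread between these arrays, which may be technical.

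Array medians in the dChip table lay between 483 and 552, and arrays of 1 group correlated at r = 0.968 to 0.994. The Hnf4 probe set read 2784, 2938 and 3190 in starved larvae labelled mutant, against 1736, 1818 and 1937 in starved controls. In fed larvae it read 1641, 1540.4 and 1482 in those labelled mutant and 1327, 1207 and 1228 in controls. Hnf4 was thus brighter in every array labelled mutant than in controls of the same diet. Which part of the gene the deletions remove is not stated in the labels, so the Hnf4 level is no test of genotype here, and every direction below rests on the labels.

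Of the member probe sets, 2 of 9 were lower in larvae labelled mutant than in controls when starved, and none was higher, where 3.7% of all probe sets were called lower and 7.61% were called in either direction. In fed larvae 1 of 9 was higher and none was lower, where 0.186% of all probe sets were called higher and 1.05% in either direction. A call means an adjusted p below 0.05 in limma's moderated test, with Benjamini-Hochberg adjustment over all 9669 probe sets. The called genes were CG16904 and sit in starved larvae and CG16904 in fed larvae. In starved larvae all 9 log2 differences were negative, with a median of -0.31 against -0.01 over all probe sets, and in fed larvae 7 of 9 were positive, with a median of 0.12 against -0.01. Whole larvae were measured, so fewer cells of a type and less RNA per cell cannot be told apart.

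**Figure D1:**
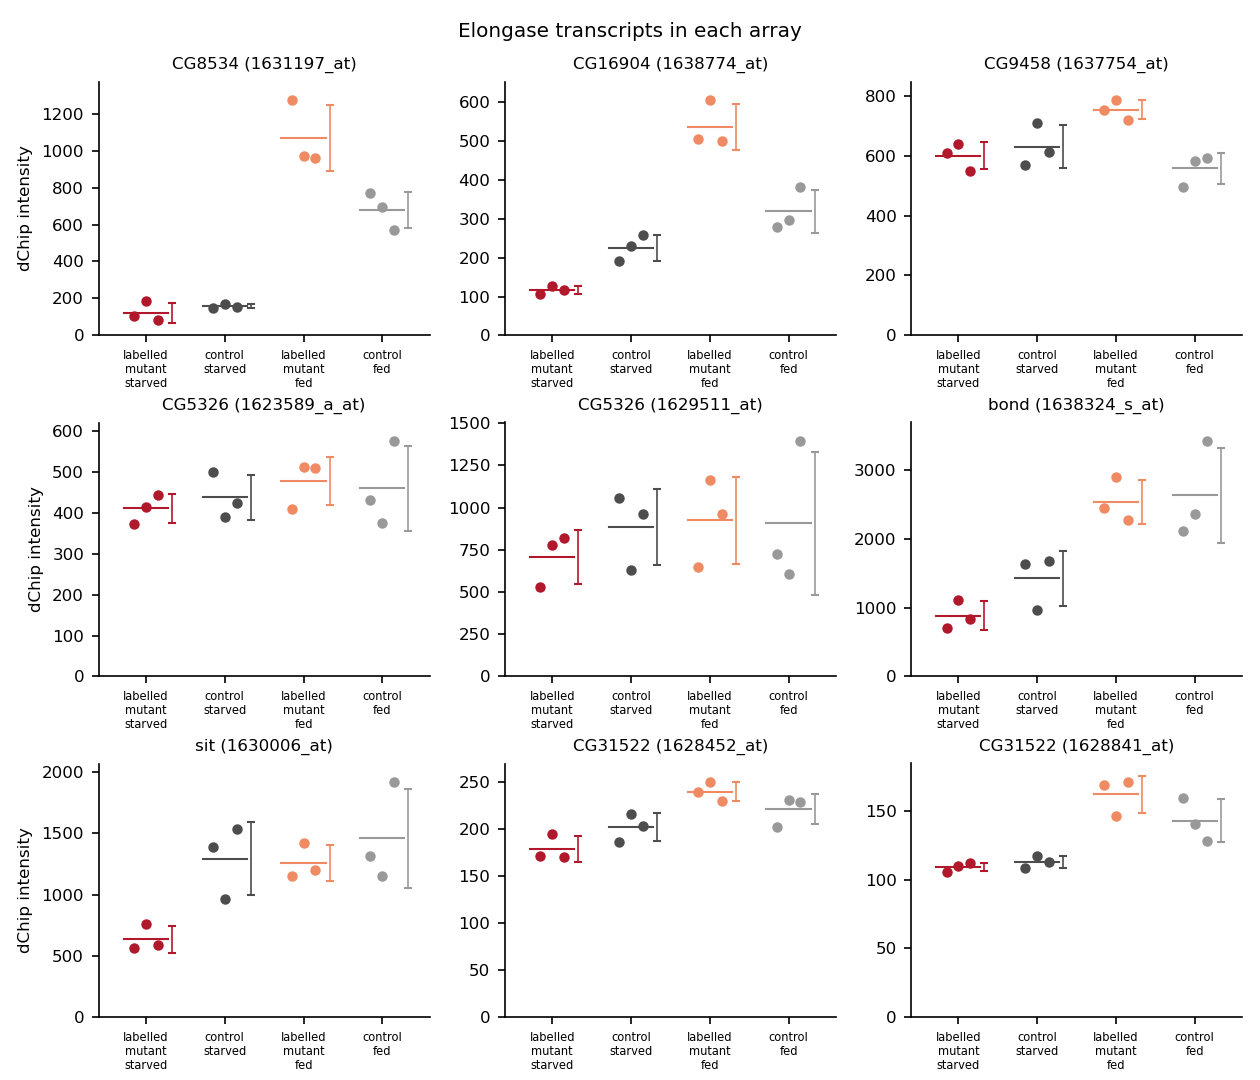
dChip intensity (linear axis from 0) of the 9 member probe sets in each array. Points are arrays, horizontal lines group means and bars 1 SD (n = 3 per group). CG16904 is lower in starved larvae labelled mutant than in starved controls and higher in fed larvae labelled mutant than in fed controls.

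CG16904 was the one member called between the genotypes in opposite directions in starved and fed larvae. This gene is known as an elongase only from its sequence. Its probe set read 107, 127 and 116 in starved larvae labelled mutant, against 190.3, 229.8 and 257 in starved controls. In fed larvae it read 506, 604 and 499 in those labelled mutant and 278, 296 and 382 in controls. In each diet the genotypes did not overlap, and they lay in opposite order.

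In starved larvae CG16904 fell by 0.94 ± 0.14 on the log2 scale (SE, adjusted p = 0.0026 in limma), which is 1.92-fold. In fed larvae it rose by 0.76 ± 0.14 (adjusted p = 0.0327), which is 1.69-fold. Starvation lowered it by -2.20 log2 in larvae labelled mutant and by -0.50 in controls (adjusted p = 2.66e-07 and 0.0101). The difference between those responses was -1.70 ± 0.20 log2, with a 95% interval of -2.15 to -1.26 (adjusted p = 0.00236). For this difference of responses 0.765% of all probe sets were called lower and 2.59% in either direction.

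The order of the 4 groups for CG16904 was fed larvae labelled mutant, fed controls, starved controls and starved larvae labelled mutant. All neighbours in that order were separated in every array. The lowest group was dim, since all its arrays lay below 250.5, the lowest 25th percentile of any array. The series matrix gave the same directions, with log2 differences of -1.92 in starved larvae (adjusted p = 0.0090) and -3.06 for the response (0.0259). The fed difference was 1.14 there but missed the threshold (0.192), and so did the control response, at -0.25 (0.562). The fed call also did not hold with the compared groups alone, without any 1 of the 3 fed arrays labelled mutant, or without fed control replicate 1 or 2. The same was true without starved control replicate 2 and without replicate 3 of the starved larvae labelled mutant.

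**Figure D2:**
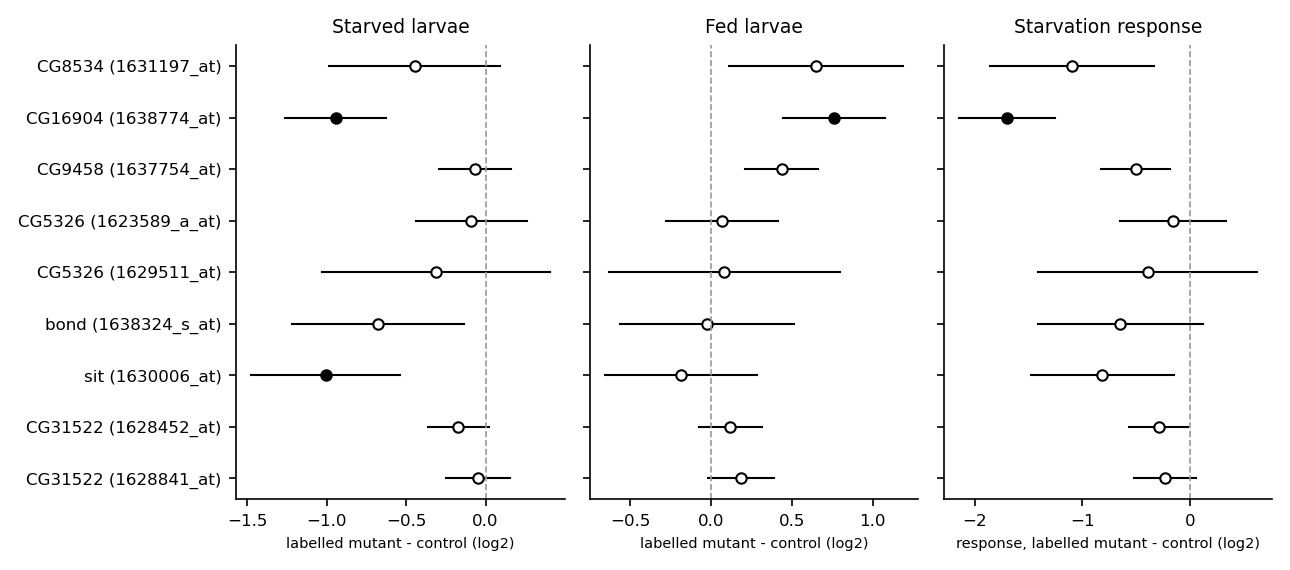
Log2 differences of the 9 member probe sets, labelled mutant minus control, in starved larvae (left) and fed larvae (middle), and the starvation response of larvae labelled mutant minus that of controls (right). Lines are 95% intervals and filled points passed the threshold. CG16904 lies at -0.94, 0.76 and -1.70 log2 in the 3 panels in that order, and sit passed the threshold in starved larvae.

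CG16904 lies in a row of ELO genes on chromosome arm 3R. In the RefSeq Release 6 gene table, CG8534, eloF, CG16904, CG9459 and CG9458 follow each other with 0 other protein-coding genes between them. CG8534, CG16904 and CG9458 are members, and eloF is known in adult females for lengthening the cuticular hydrocarbons used as pheromones. All 5 genes had a probe set in the series matrix, so the row is described on that scale, whose making is not given in the sources used here.

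In fed larvae, 4 of these 5 genes had every array labelled mutant above every control array. Of all probe sets of the series matrix, 6.62% were separated in that direction. CG8534 read 1587, 1119 and 1172 in fed larvae labelled mutant and 668, 794 and 726 in fed controls. CG9459 read 250.1, 299 and 196.5 in fed larvae labelled mutant and 94.5, 78.5 and 38.1 in fed controls. CG9458 read 664, 610.4 and 559.7 in fed larvae labelled mutant and 289.1, 269 and 213 in fed controls. The separation was widest on the log2 scale for CG9459, and the arrays of eloF alone overlapped, at 119 to 160.3 in fed larvae labelled mutant against 77.9 to 129.7 in fed controls.

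The fed log2 differences in gene order were 0.81 for CG8534, 0.50 for eloF, 1.14 for CG16904, 1.90 for CG9459 and 1.26 for CG9458. None of the 5 passed the threshold in the series matrix, where 0.107% of all probe sets were called higher and 0.336% in either direction. Their adjusted p-values were 0.707 for CG8534, 0.234 for CG9459 and 0.0512 for CG9458, the smallest of the row. In starved larvae the same row gave -0.71 for CG8534, -0.25 for eloF, -1.92 for CG16904, -0.44 for CG9459 and 0.53 for CG9458. The dChip table gave 0.19 for eloF (adjusted p = 0.807 in limma), so no direction is given for it. CG16904 was the only gene of the row called in starved larvae in the series matrix, where 1.01% of all probe sets were called lower. Genes of 1 row share sequence, and cross-hybridisation between their probe sets was not tested.

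**Figure D3:**
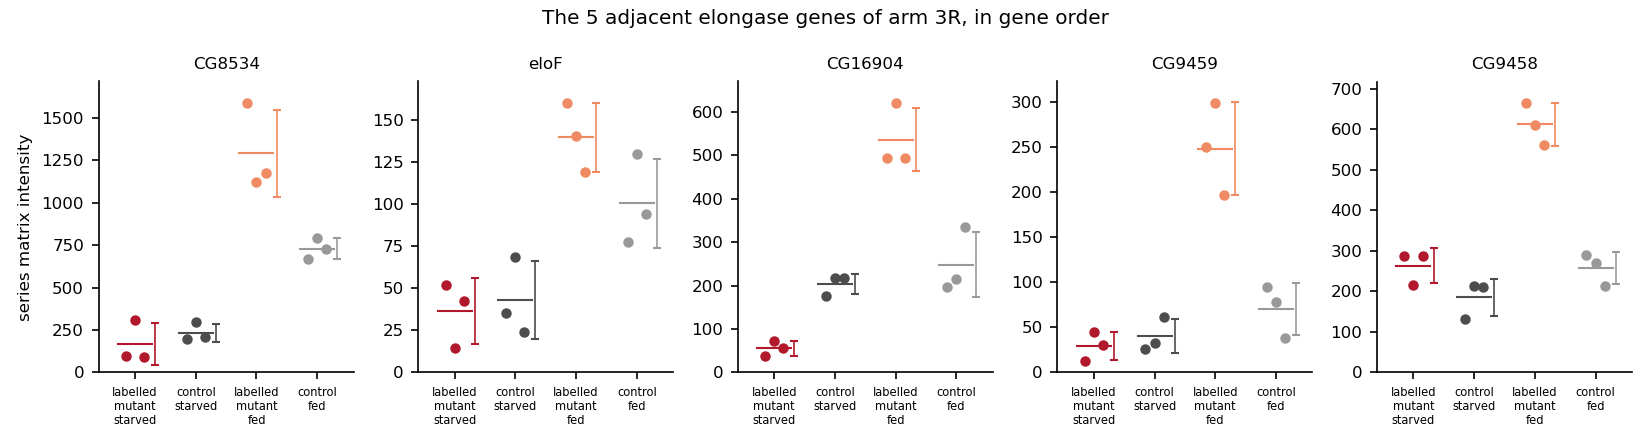
Series matrix intensity (linear axis from 0) of the 5 adjacent ELO genes of arm 3R, left to right in gene order. Points are arrays, lines group means and bars 1 SD (n = 3 per group). Fed larvae labelled mutant lie above fed controls in every array for CG8534, CG16904, CG9459 and CG9458.

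CG8534, at 1 end of the row, had the strongest response to starvation of the members. In the dChip table it read 103, 185 and 81.7 in starved larvae labelled mutant and 151, 169 and 154 in starved controls. In fed larvae it read 1272, 971 and 958 in those labelled mutant and 769, 695 and 571 in controls. Both starved groups were below 250.5 in every array, and all fed arrays were above them.

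The starvation difference of CG8534 was -3.19 ± 0.25 log2 in larvae labelled mutant and -2.09 ± 0.25 in controls (adjusted p = 7.62e-07 and 2.86e-05 in limma), or 9.14-fold and 4.27-fold. Between fed genotypes the groups did not overlap, with a difference of 0.65 ± 0.25 (adjusted p = 0.343, 95% interval 0.11 to 1.19). In starved larvae the genotypes overlapped, with a difference of -0.45 ± 0.25 (adjusted p = 0.352). The difference of responses was -1.10 (adjusted p = 0.125).

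CG9458, at the other end of the row, read 609, 639 and 549.8 in starved larvae labelled mutant and 569, 709.7 and 611 in starved controls in the dChip table. The fed values were 754, 785 and 720.5 in larvae labelled mutant and 497, 583 and 593 in controls. Fed larvae labelled mutant were the highest group, above every array of the other 3. The other 3 groups overlapped one another.

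The fed difference of CG9458 was 0.44 ± 0.10 log2 and missed the threshold (adjusted p = 0.0934 in limma, 95% interval 0.21 to 0.66). With starvation it fell by 0.33 in larvae labelled mutant (adjusted p = 0.0124), a call lost without replicate 3 of the starved larvae labelled mutant, and differed by 0.17 in controls (0.15). In the series matrix these starvation differences were -1.22 in larvae labelled mutant (adjusted p = 0.00163), without overlap, and -0.50 in controls (0.113). The difference of responses was -0.51 in the dChip table (adjusted p = 0.0947). In starved larvae the difference between genotypes was -0.07 in the dChip table and 0.53 in the series matrix, so its direction is not settled.

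A further row of ELO genes on arm 3R holds CG5326, bond, sit and CG33110, with 1 other protein-coding gene between CG5326 and bond. In this row sit was lower in starved larvae labelled mutant. Its probe set read 563, 764 and 585 in starved larvae labelled mutant, against 1383, 962 and 1531 in starved controls. In fed larvae it read 1147, 1420.5 and 1197 in those labelled mutant and 1314, 1148 and 1913 in controls. Starved larvae labelled mutant were below every other array, and the other 3 groups overlapped.

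In starved larvae sit fell by 1.00 ± 0.21 on the log2 scale (adjusted p = 0.0163 in limma), which is 2.01-fold. The call held under 17 of 22 alternatives. It was lost in the series matrix (adjusted p = 0.0883) and when replicate 1 or 3 of either starved group was left out. In fed larvae sit differed by -0.19 ± 0.21 (adjusted p = 0.785, 95% interval -0.66 to 0.28). With starvation it fell by 0.98 in larvae labelled mutant (adjusted p = 0.00152), and its difference was -0.17 in controls (0.498). The difference of responses was not called, at -0.82 (adjusted p = 0.186).

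bond, an elongase needed for cytokinesis in spermatocytes and so for male fertility, responded to starvation in both genotypes. It read 698, 1115 and 835 in starved larvae labelled mutant and 1633, 968 and 1672 in starved controls. The fed values were 2440.2, 2895 and 2278 in larvae labelled mutant and 2108.5, 2360.5 and 3415 in controls. In the dChip table the diets did not overlap within a genotype, and the genotypes overlapped within each diet. In the series matrix the starved genotypes did not overlap, at 290 to 391 in larvae labelled mutant and 491 to 777 in controls.

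Starvation lowered bond by -1.54 ± 0.25 log2 in larvae labelled mutant and by -0.90 ± 0.25 in controls (adjusted p = 0.000178 and 0.0076 in limma). Between genotypes its difference was -0.67 ± 0.25 in starved larvae (adjusted p = 0.136, 95% interval -1.22 to -0.13) and -0.03 ± 0.25 in fed larvae (0.976, interval -0.57 to 0.52). The starved difference was called under 2 of 22 alternatives. These were array weights (-0.92, adjusted p = 0.0038 in limma) and leaving out starved control replicate 2 (-0.93, 0.038). In the series matrix it was -0.92 (adjusted p = 0.0608). Across the 12 arrays bond and sit correlated at r = 0.872 and CG16904 and CG8534 at r = 0.895. These values describe the arrays and share the diet difference.

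CG5326 was not called in any comparison fitted without weights or a covariate. Under array weights or with log2 Lsp2 as a covariate, described below, it was called for starvation. Of its probe sets, 1623589_a_at read 373, 416 and 444 in starved larvae labelled mutant and 499.5, 391 and 425 in starved controls. It read 410.4, 513 and 509 in fed larvae labelled mutant and 431, 375 and 575 in fed controls. All 4 groups overlapped one another.

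The second CG5326 probe set, 1629511_at, followed the first at r = 0.942 over 12 arrays. It ranged from 527 to 820.2 in starved larvae labelled mutant, 633 to 1059 in starved controls, 648 to 1162 in fed larvae labelled mutant and 605 to 1393 in fed controls. Its 95% interval in starved larvae was -1.03 to 0.40 log2, which still holds a fall of 1 log2 unit. The remaining probe set, 1638895_at, was present in the series matrix alone and was below the floor of 16 in all 12 arrays.

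The 3 probe sets of CG31522 read differently. The brightest, 1624109_s_at, was in the series matrix alone and read 763, 736 and 806 in starved larvae labelled mutant and 698, 872 and 883 in starved controls. It read 533, 975 and 878 in fed larvae labelled mutant and 757, 829 and 585 in fed controls. The 4 groups overlapped, and no difference was called.

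The other CG31522 probe sets were dim, and read 171 to 250 (1628452_at) and 106 to 171 (1628841_at) over the 12 dChip arrays. In larvae labelled mutant starvation lowered them by -0.42 and -0.57 log2 (adjusted p = 0.00119 and 0.000212 in limma). In controls the second fell by 0.33 (adjusted p = 0.00774) and the first differed by -0.13 (0.203). In the series matrix these probe sets read 2.8 to 40.5, at or near the floor, and none of these starvation calls held there.

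Starvation lowered 7 of the 9 member probe sets in larvae labelled mutant and 4 of 9 in controls, and raised none. The background was 38.3% of all probe sets called lower in larvae labelled mutant and 32.1% in controls, with 75.7% and 68.2% called in either direction. The median log2 difference of the member probe sets was -0.57 in larvae labelled mutant and -0.17 in controls, against -0.04 and 0.03 over all probe sets. Counted by gene, each by its brightest dChip probe set, 6 of 7 and 3 of 7 were called lower, with medians of -0.98 and -0.17. Dim CG31522 probe sets are among those called, while its brightest, 1624109_s_at, differed by -0.004 and 0.18 in the series matrix. All 9 differences of responses were negative, with a median of -0.51 against -0.02, and 1 of 9 was called. These comparisons share arrays with each other.

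Elsewhere in the ELO family, 12 further genes were listed and 6 were in the dChip table. None of the 6 was called between genotypes in either diet, with medians of -0.06 log2 in starved and 0.11 in fed larvae. At an unadjusted p below 0.05 there were 1 of 6 in starved and 2 of 6 in fed larvae. Over all 9669 probe sets, 1955 in starved and 1071 in fed genotypes had such a p. CG31523, the neighbour of CG31522, was raised by starvation by 0.66 log2 in larvae labelled mutant and 0.82 in controls. CG6660 fell with starvation by 1.26 log2 in larvae labelled mutant and by 0.92 in controls, and CG33110 by 0.32 and 0.39. CG18609 differed by -0.09 in larvae labelled mutant (adjusted p = 0.652 in limma) and rose by 0.80 in controls (0.00264). eloF and CG31141 were called in both genotypes too, but their directions in the series matrix were opposite, so none is given.

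Of the 5 ELO genes read from the series matrix alone, none was called between genotypes. Elo68beta, the neighbouring paralog of an elongase of the male reproductive tract, read 295.8, 276 and 200.9 in fed larvae labelled mutant and 58.2, 62.1 and 30.9 in fed controls. The groups did not overlap, and the difference was 2.40 ± 0.41 log2 (adjusted p = 0.0595 in limma). It was called under 4 of 21 alternatives, and the fed difference of CG9459 under 1 of 21, a floor of 64. In starved larvae the genotypes did not overlap for Elo68beta, at 1.28 (adjusted p = 0.199), and for Elo68alpha in the other direction, at -1.22 (0.173). The starvation difference in larvae labelled mutant was -1.78 log2 for Elo68beta and -3.14 for CG9459 (adjusted p = 0.00899 and 0.000913), and that of Elovl7 in controls was -0.65 (0.0105). CG17821 and Elo68alpha were not called. For CG30008 there were only probe sets shared with other genes, which were not used here.

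The other enzymes of the elongation cycle were lower in starved larvae labelled mutant for 3 of 4 genes, with a median of -0.80 log2, against a background of 3.7% of probe sets called lower. The members and all lists were chosen with earlier results of these data known, so no count here is a test against that background. Hacd1 and Hacd2 are dehydratases, Sc2 is the enoyl reductase and spidey is the ketoacyl reductase. Hacd1 and Hacd2 were picked for naming after their values were seen. Sc2 read 927, 1004 and 1002 in starved larvae labelled mutant and 2020, 1848 and 2147 in starved controls, a fall of 1.03 ± 0.10 log2 (adjusted p = 0.000114 in limma). Hacd1 fell by 0.91 ± 0.10 (adjusted p = 0.000396) and Hacd2 by 0.68 ± 0.10 (0.00207), without overlap. The starved call for Hacd2 was lost in the series matrix (adjusted p = 0.057). spidey overlapped, with a difference of -0.06 ± 0.10 (adjusted p = 0.824).

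In fed larvae Hacd2 fell by 0.48 ± 0.10 log2 (adjusted p = 0.0467 in limma), where 0.869% of all probe sets were called lower. The Hacd2 call held under 7 of 22 alternatives and was lost when any of 11 of the 12 arrays was left out. Hacd1 and Sc2 did not overlap between fed genotypes, at -0.46 and -0.43 (adjusted p = 0.077 and 0.0944). Starvation lowered all 4 in larvae labelled mutant and 3 of 4 in controls, where 38.3% and 32.1% of all probe sets were called lower. spidey fell with starvation by 1.11 and 0.85 log2, Hacd1 by 0.91 and 0.46, and Sc2 by 0.88 and 0.28, in larvae labelled mutant and in controls. The control call for Sc2, whose arrays overlapped, held under 16 of 22 alternatives and was lost without control replicate 1 of either diet, fed control replicate 3 or starved control replicate 2. Of the 4 differences of responses none was called, and the nearest was Sc2 at -0.61 (adjusted p = 0.0521).

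**Figure D4:**
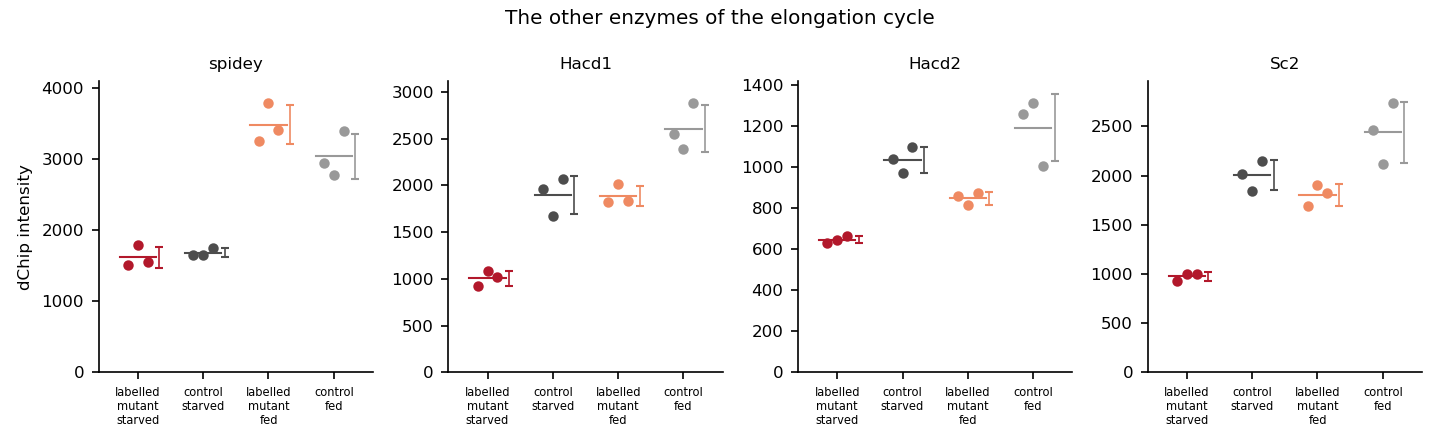
dChip intensity (linear axis from 0) of the 4 other enzymes of the elongation cycle. Points are arrays, lines group means and bars 1 SD (n = 3 per group). Hacd1, Hacd2 and Sc2 are lower in starved larvae labelled mutant than in every starved control array, and spidey overlaps.

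The enzymes that supply acyl chains and malonyl-CoA were lower in starved larvae labelled mutant for 3 of 4 genes in the dChip table, of 6 listed, where 3.7% of all probe sets were called lower. FASN1, the main fatty acid synthase, read 861, 936 and 638 in starved larvae labelled mutant, against 4810, 5275 and 5002 in starved controls. It fell by 2.65 ± 0.13 log2 (adjusted p = 3.41e-07 in limma). ACC, which makes malonyl-CoA, fell by 1.33 ± 0.20 (adjusted p = 0.0026), and AcCoAS, which makes acetyl-CoA, by 0.57 ± 0.14 (0.032). The AcCoAS call, named after its value was seen, held under 14 of 22 alternatives. It was lost without any 1 of the 6 starved arrays, in the series matrix (adjusted p = 0.0761) and with a replicate block (0.0588). None of the 4 was called in fed larvae, where FASN1 differed by 0.01. None reached an unadjusted p below 0.05 there (0 of 4, against 1071 of all 9669 probe sets). The difference of responses was -2.66 for FASN1 (adjusted p = 5.79e-05) and -1.30 for ACC (0.0424), the second of which was lost when any of 9 of the 12 arrays was left out, in the series matrix (0.109) and with a replicate block (0.0731).

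The other 2 listed genes, FASN2 and ATPCL, were measured in the series matrix alone, and neither was called. FASN2, a fatty acid synthase that is also on the oenocyte marker list, read 477.6, 353.9 and 403.6 in starved larvae labelled mutant and 170.6, 203.5 and 216.7 in starved controls. These groups did not overlap, and the difference was 1.06 ± 0.22 log2 (adjusted p = 0.0521 in limma), opposite in direction to FASN1. In fed larvae FASN2 differed by 0.38 with overlap (adjusted p = 0.762). ATPCL, which makes cytosolic acetyl-CoA from citrate, differed by -0.26 in starved larvae (adjusted p = 0.912) and was near the floor of 16. Both genes were named after their values were seen.

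Of 5 measured desaturases of 7 listed, 3 were lower in starved larvae labelled mutant, against 3.7% of all probe sets called lower. None was called in fed larvae, where 0 of 5 had an unadjusted p below 0.05, against 1071 of all 9669 probe sets. CG8630 fell by 1.27 ± 0.23 log2 (adjusted p = 0.00735 in limma), CG15531 by 0.73 (0.00972) and Desat1, which introduces the first double bond of most unsaturated fatty acids, by 0.47 (0.025). The Desat1 call was lost without replicate 1 or 3 of the starved larvae labelled mutant and without starved control replicate 2 or 3. In the series matrix the calls for CG8630 and Desat1 were lost (adjusted p = 0.0503 and 0.0867), and CG15531 was at -1.29. The difference of responses of CG15531 was also called, at -0.97. That call was lost when any of 7 of the 12 arrays was left out and in the series matrix (adjusted p = 0.236 in limma). CG15531 and Desat1 were named after their values were seen.

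Lists of pathways that very long chains can enter were described in the same way. Of 6 genes of sphingolipid synthesis, none was called between genotypes, with medians of -0.20 log2 in starved and 0.02 in fed larvae. An unadjusted p below 0.05 was found for 2 and 0 of them, and for 1955 and 1071 of all 9669 probe sets. Of 11 measured fatty acyl-CoA reductases and hydrocarbon P450s of 18 listed, CG1441 rose in starved larvae labelled mutant by 1.60 ± 0.29 log2 (adjusted p = 0.00735 in limma), a call lost in the series matrix (0.0821). CG17560 rose in fed larvae by 0.79 ± 0.15 (adjusted p = 0.0362), and was lost when any of 9 of the 12 arrays was left out. Its difference of responses was -0.99 (adjusted p = 0.0414), so CG17560, like CG16904, had a larger fall with starvation in larvae labelled mutant. This gene was named after its value was seen, and the call for its responses was lost without any 1 of 10 arrays. In the series matrix the fed call and the call for its responses were both lost (adjusted p = 0.21 and 0.228).

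Of 6 measured genes of 8 listed for very long chain acyl activation and peroxisomal oxidation, 4 were lower in starved larvae labelled mutant and 3 in fed larvae. Of all probe sets, 3.7% were called lower in starved and 0.869% in fed larvae. Acox57D-d, an acyl-CoA oxidase, fell by 1.84 log2 in starved and by 1.54 in fed larvae (adjusted p = 3.41e-07 and 6.77e-06 in limma). Its starved difference was -4.10 in the series matrix, where it was also called. Mfe2, the peroxisomal multifunctional enzyme, fell by 1.40 in starved larvae and ScpX, a sterol carrier protein and thiolase, by 0.82 (adjusted p = 0.000419 and 0.025). The starved call for ScpX was lost without replicate 1 or 3 of either starved group and in the series matrix (adjusted p = 0.167). Both were also called in fed larvae, at -0.81 and -0.97 (adjusted p = 0.0395 each), calls lost when any of 11 of the 12 arrays was left out. bgm, an acyl-CoA synthetase for very long chains, fell by 0.75 in starved larvae (adjusted p = 0.00224). No difference of responses was called in this list. bgm and ScpX were named after their values were seen.

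With starvation, all 4 supply genes in the dChip table were called lower in both genotypes, against the background of 38.3% in larvae labelled mutant and 32.1% in controls. FASN1 fell by 4.76 log2 in larvae labelled mutant and by 2.10 in controls. ACC fell by 3.00 in larvae labelled mutant and by 1.70 in controls, and AcCoAS differed by -2.85 and -2.08. FASN3, a further fatty acid synthase, fell by 1.06 in larvae labelled mutant. Of 5 desaturases, 4 were called lower in larvae labelled mutant, where CG8630 fell by 1.76 and CG15531 by 1.09, and 2 in controls. Of 11 reductases and P450s, 5 were called lower in larvae labelled mutant and 6 in controls. CG17560 fell by 2.15 in larvae labelled mutant and by 1.16 in controls, while CG14893 fell by 1.58 and the reductase FarO by 1.32 in larvae labelled mutant.

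Sphingolipid genes had 1 of 6 called lower and 1 higher in larvae labelled mutant, and 1 lower and 2 higher in controls. Of all probe sets, 75.7% in larvae labelled mutant and 68.2% in controls were called in either direction. Of 6 activation and peroxisomal genes, 4 were called lower and 1 higher in larvae labelled mutant, and 2 lower and 1 higher in controls. Acox57D-p, an acyl-CoA oxidase like Acox57D-d, was the one raised in both genotypes, by 1.54 log2 in larvae labelled mutant, where 37.5% of all probe sets were called higher. Acox57D-d fell there by 1.00. In the series matrix the falls were larger by over 1.5 times for Acox57D-d (-3.13), CG14893 (-3.08), CG15531 (-1.64) and FarO.

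Marker lists were set beside these values. Of 4 measured oenocyte markers of 5 listed, none was called between genotypes, and 1 of 4 had an unadjusted p below 0.05 in each diet. Of all 9669 probe sets, 1955 in starved and 1071 in fed genotypes had such a p. The summed dChip level of the oenocyte markers was 5472 to 6033 in starved larvae labelled mutant and 5358 to 6143 in starved controls. It was 8240.3 to 9451 in fed larvae labelled mutant and 7482 to 7938 in fed controls. In these sums the starved genotypes overlapped, and fed larvae labelled mutant lay above fed controls. Single markers did not all follow the sum. FASN3 read 333 to 452 in starved larvae labelled mutant and 506 to 626 in starved controls, without overlap. Its fed means were 789 and 983, opposite in direction to the sum, while those of spidey (3479 and 3036) and FarO (367 and 279) followed it, all with overlap. In the series matrix fed spidey did not overlap, at 2390 to 2673 in larvae labelled mutant and 1628 to 2018 in controls, and was not called. The remaining marker of the sum, Cyp4g1, is not given singly, so its part in the sums is not shown. FASN2 was outside the dChip sum and is given above. spidey is on both this list and that of the cycle. Of 5 measured male germline markers of 8 listed, none was called between genotypes, and 2 of 5 in starved and 0 of 5 in fed larvae had an unadjusted p below 0.05. Their sums were 908 to 1129 in starved larvae labelled mutant and 1258 to 1321 in starved controls, without overlap, and 1008 to 1213 and 1055 to 1241 in the fed groups. The part of these markers in the elongase values was not tested.

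Of 6 fat body markers, Lsp2, a larval serum protein of the fat body, was the one in the dChip table. It read 287 to 374 in starved larvae labelled mutant and 328 to 369.5 in starved controls. Fed larvae labelled mutant read 13857, 328 and 780.0 for Lsp2, and fed controls 18373, 16372 and 290.4. The 3 arrays of each fed group therefore did not resemble each other for this transcript. Over the 6 fed arrays, as a description, Pearson's r of log2 intensity with Lsp2 was -0.96 and -0.93 for the CG5326 probe sets 1629511_at and 1623589_a_at. It was -0.75 for bond, -0.68 for sit, -0.59 for CG16904, -0.44 for CG9458 and 0.19 for CG8534. For the CG31522 probe sets 1628452_at and 1628841_at it was -0.47 and 0.38.

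**Figure D5:**
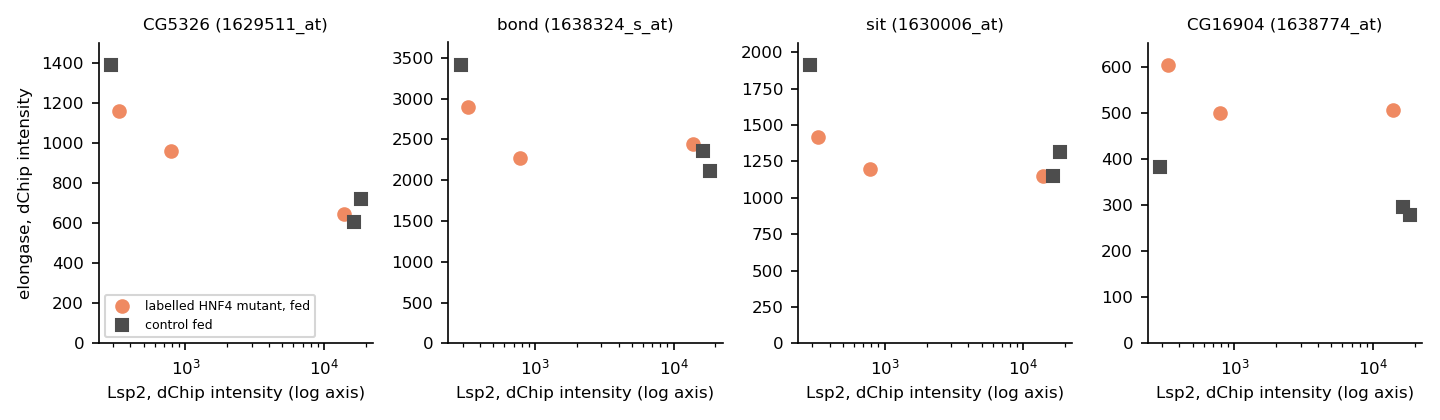
dChip intensity of 4 member probe sets (linear axis from 0) against that of Lsp2 (log axis) in the 6 fed arrays, 3 labelled mutant and 3 control. For CG5326 the fed arrays bright for Lsp2 are the lowest in both genotypes, and for CG16904 every array labelled mutant lies above every control array.

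With log2 Lsp2 as a covariate, an alternative chosen after the data were seen, the fed difference of CG16904 was 0.68 (adjusted p = 0.0256 in limma). The counts of called member probe sets between genotypes stayed at 2 in starved and 1 in fed larvae, where 11.2% and 1.46% of all probe sets were called in that fit. With starvation it called 9 of 9 in larvae labelled mutant and 4 of 9 in controls, against 76.5% and 63.5% of all probe sets. Both CG5326 probe sets gained a call in larvae labelled mutant, 1629511_at at -0.75 (adjusted p = 0.0116 in limma). In controls CG5326 1623589_a_at gained a call, at -0.34 (adjusted p = 0.0393 in limma), and CG31522 1628841_at lost its call (0.0694).

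The probe sets most like each member were ranked by Pearson's r of log2 intensity over the 12 arrays of the dChip table, and the first 3 were named. CG16904 was most like CG18765, SmD1 and CG10073 (r = 0.971, 0.966 and 0.959), and sit was most like CG17032, CG8630 and Cpr11A (0.967, 0.957 and 0.95). CG8630 is the desaturase described above and Cpr11A belongs to the cuticle proteins. CG8534 was most like CG1092, alpha-Man-IIa and Marc (r = 0.993, 0.987 and 0.985). bond was most like PH4alphaNE1, Skel and Lcp65Ad (0.987, 0.987 and 0.984), of which the last is a larval cuticle protein. For CG9458 the leading values were lower, at 0.88 for CG2617, 0.875 for Sdic1 and 0.869 for Phlpp. The CG5326 probe sets were most like each other (r = 0.942). Next came Rlb1 and Twdlalpha for 1623589_a_at (0.914 and 0.899), and Cpr31A and Twdlalpha for 1629511_at (0.924 and 0.918). CG31522 was most like CG34417, CG17195 and CG11891 by 1628452_at (0.972, 0.96 and 0.955). By 1628841_at it was most like cl, Papst2 and Catsup (0.978, 0.974 and 0.97). All such values include the shared difference between diets.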

How the data were processed

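RNA of whole larvae was measured on 12 Affymetrix Drosophila Genome 2.0 arrays, 3 in each of 4 groups taken from the labels. The authors deposited a dChip table of linear intensity values (9669 probe sets, limited to those called Present, per the file headers) and a series matrix of intensity values whose processing is not given in the sources used here (18769 probe sets after 183 control probe sets were left out). Values below 16 were set to 16, log2 was taken, and limma 3.58.1 (R 4.3.3) fitted 1 mean per group over all 12 arrays with lmFit and eBayes, two-sided, on the whole table. P-values were adjusted by Benjamini-Hochberg over all probe sets, with a threshold of 0.05. The code was tested on simulated data. The number of arrays limits the precision. Of the 9669 probe sets, 7970 had 1 symbol, 248 several and 1451 none. The members and lists were chosen with earlier results of these data known. Named were all members, ELO genes, and called list genes with a log2 difference of at least 1, with others marked. A list gene counts by its brightest probe set. Alternatives were other floors, quantile normalization, a filter on dim probe sets, a replicate block, trended and weighted fits and the compared groups alone. Further alternatives were the series matrix, leaving out each array and log2 Lsp2 as a covariate. The last was chosen after the data were seen and is counted with the others.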

Additional observations from a re-analysis of the deposited data

Results flagged for a closer look

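Among the members, CG16904 alone was called for a difference in starvation response between the genotypes, at -1.70 log2 (adjusted p = 0.00236 in limma). Starvation lowered it by -2.20 log2 in larvae labelled mutant and by -0.50 in controls. The call held under all 20 alternatives that tested it, with values of -3.06 to -1.60 and adjusted p-values of 0.000689 to 0.0259. It was not tested where the dimmest 40% of probe sets were left out. With array weights sit, CG8534 and CG9458 were called too. Calls over all probe sets for this difference also ranged from 26 to 1208 between alternatives. CG8534 was also called without replicate 2 of the starved larvae labelled mutant (-1.44, adjusted p = 0.00995 in limma), and sit without fed control replicate 3 (-1.03, 0.04999). Beyond the members, FASN1, ACC, CG17560 and CG15531 were called for this difference. FASN1 was called under all 21 alternatives, at -2.77 to -2.50 log2.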

How the results depend on the processing

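Same-numbered arrays of different groups deviated together at r = -0.40 to 0.28, and 8 of 18 pairs were below 0. With 3 arrays per group these values cannot settle whether a replicate number marks a shared batch. The dChip column names letter the arrays in order of replicate number, and the labels do not say what same-numbered arrays share. With the replicate number as a block, the called member probe sets were 2 between starved and 1 between fed genotypes, 7 and 4 with starvation in larvae labelled mutant and in controls, and 1 for the difference of responses, as without it, and all probe sets called numbered 610, 74, 7354, 6632 and 132. In the order of those 5 comparisons, called member probe sets numbered 1, 0, 3, 1 and 0 without the dimmest 40% of probe sets, which removes dim members, and 5 in starved genotypes and 4 for the responses with array weights. They numbered 1 in starved genotypes, 0 in fed genotypes and 2 for control starvation in the series matrix, and 0 in fed genotypes with the compared groups alone. Leaving out 1 array gave 1 to 3 in starved genotypes, 0 to 1 in fed genotypes and 1 to 2 for the responses. All probe sets called then numbered 329 to 940, 47 to 272 and 81 to 549. Among all alternatives, calls over all probe sets rose to as many as 2439 in starved genotypes and 1208 for the responses. Member counts given here without such a total are thus no result about the members. The causes were not tested.

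All probe sets called numbered 329 to 2439 in starved genotypes (736 as reported), 41 to 272 in fed genotypes (102), 4463 to 8084 and 4130 to 6705 with starvation in larvae labelled mutant and in controls (7322 and 6594), and 26 to 1208 for the responses (250). The median over all probe sets of the control starvation difference was 0.14 log2 in the series matrix and 0.03 in the dChip table.

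Some directions turned. In the series matrix CG31522 (1628841_at) was at 0.18 in starved and -0.11 in fed genotypes, 0.047 for starvation in larvae labelled mutant and 0.29 for the responses. There CG9458 was at 0.53 in starved genotypes and -0.50 for control starvation. CG5326 was at 0.23 (1623589_a_at) and -0.018 (1629511_at) for control starvation in the series matrix. Starvation in larvae labelled mutant and in controls gave 0.12 and 0.41 for CG31141 and -2.08 and -1.33 for eloF there. With Lsp2 as a covariate CG5326 was at -0.051 and -0.18 in fed genotypes, and 1629511_at was at -0.59 for control starvation, and at -0.053 with quantile normalization. With array weights sit was at 0.064 and 1623589_a_at at 0.051 for control starvation.

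Leaving out 1 array gave, for CG5326 1623589_a_at, -0.17 to 0.0096 in starved genotypes, -0.068 to 0.24 in fed genotypes and -0.19 to 0.12 for control starvation. For 1629511_at it gave -0.16 to 0.44 in fed genotypes and -0.22 to 0.38 for control starvation. CG9458 ranged from -0.14 to 0.020 in starved genotypes. sit ranged from -0.34 to 0.024 in fed genotypes and -0.32 to 0.045 for control starvation, and bond from -0.17 to 0.18 in fed genotypes. CG31522 1624109_s_at ranged from -0.066 to 0.37 in fed genotypes and -0.27 to 0.17 for starvation in larvae labelled mutant. The dim members, close to the floor in the series matrix, limit what their small differences can show.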
